A study of Mus musculus with 16 samples.

Results

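Cells that do not divide are held back by a small set of proteins, and 8 genes for such proteins were followed here in mouse cells enriched for haematopoietic stem cells. They were Cdkn1a, Cdkn1b, Cdkn1c, Cdkn2c and Cdkn2d, which encode inhibitors of cyclin-dependent kinases (CDKs), and Ndn, Fbxw7 and Btg2, which encode other restraints on cell division. Probes were taken by their gene symbol in the deposited table, which gave 15 of its 25697 probes. After the filter on dim probes, 10 probes of 7 of the 8 genes were left, among 13364 probes of 9680 genes. Btg2 was the gene without a passing probe.

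Expression was measured on 16 Illumina bead arrays, which report the brightness of a probe as a measure of its transcript. There were 4 groups of 4 arrays, made from Jak2VF cells after interferon, Jak2VF cells after vehicle, WT cells after interferon and WT cells after vehicle. Jak2VF cells came from knock-in mice with the overactive Jak2 kinase that drives polycythemia vera, a blood cancer with too many red cells, and had the CD45.2 form of the leukocyte surface protein CD45, whereas WT cells had CD45.1. Interferon alpha was given at 10000 units per day for 4 weeks, and the background strain of all mice was labelled C57B16. Genotype and CD45 form therefore cannot be told apart in these arrays. The labels give neither the animal of each array, the ages of the mice nor the surface markers used for the enrichment, so what p-values measure is how far these arrays differ within a group, and that spread may be technical. The question for these genes was whether interferon lowers the brakes on stem cell cycling.

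A cell leaves its resting state when cyclin D with Cdk4 or Cdk6, and then cyclin E with Cdk2, phosphorylate the retinoblastoma family and free the E2F factors that switch on the genes of S phase. Cdkn1a (p21), Cdkn1b (p27) and Cdkn1c (p57) bind and inhibit cyclin-CDK complexes broadly, whereas Cdkn2c (p18) and Cdkn2d (p19) bind Cdk4 and Cdk6 alone. In mouse marrow p57 is most abundant in resting stem cells and is needed to keep them at rest. Ndn encodes necdin, a growth suppressor that binds E2F1 and p53 and is enriched in stem cells. Fbxw7 is the substrate-binding part of an SCF ubiquitin ligase that marks Myc, cyclin E and Notch1 for destruction, and mouse stem cells that lack it enter the cycle. Btg2 is a p53-induced antiproliferative protein that acts on messenger RNA decay. Interferon alpha is known to bring resting mouse stem cells into cycle when it is first given.

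Levels are given as log2 intensity after background correction and quantile normalization, and differences between groups as log2 changes from 1 model over all 16 arrays. A gene was called changed at a limma p under 0.05 after Benjamini-Hochberg adjustment over the 9680 genes. An offset of 16 was added to all intensities, which shrinks the changes of dim probes. Array brightness was uneven between groups. Averaged over probes, an array's intensity was 602 to 1130 with interferon and 391 to 616 with vehicle in Jak2VF cells, and 294 to 1009 with interferon and 162 to 414 with vehicle in WT cells. Detected probes numbered 8209 to 13055 per array. Of 10 tested interferon-stimulated genes, 6 were called higher with interferon in Jak2VF cells and 4 in WT cells, among them Irf7, a factor of the interferon response, with log2 changes of 2.29 ± 0.35 (SE) and 2.66 ± 0.35. Of 15 listed markers of stem and progenitor cells, called stem cell markers below, 12 passed the filter. Kit, Flt3 and Fgd5 did not pass, and Flt3 and Fgd5 were detected on at most 1 of 16 arrays.

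No member of the group was called higher in any comparison (centring arrays on the median of all probes gave 3 higher in WT cells and 1 in the average), although 6.51% of all tested genes were with interferon in Jak2VF cells, 1.26% in WT cells, 13.9% in the average of both, 7.62% with interferon and 0.31% with vehicle between genotypes, and 0.093% for the difference of the interferon changes. With interferon in Jak2VF cells Cdkn1c and Ndn fell, and with interferon in WT cells Fbxw7 fell (a direction that turned with that centring), while the other tested members did not pass the threshold. Averaged over the 2 genotypes, the interferon changes of Cdkn1c, Ndn and Fbxw7 all passed, and none did with array brightness as a term in the model. Over all genes that term left 225 calls in the average, against 2764 without it. In Jak2VF cells 2 of 7 tested members were called lower, where 9.46% of all tested genes were, and in WT cells 1 of 7, where 1.01% were. In the average it was 3 of 7, against 14.6% of all genes. The median log2 change of the 7 tested members was −0.59 in Jak2VF cells and −0.10 in WT cells, beside −0.00 and 0.05 over all genes. In Jak2VF cells the change of each of the 7 was negative. Exceptions were Cdkn1a within slide 2 alone (0.024) and the centring on all probes, where the median of all genes was 0.56 and 4 of the 7 lay between 0.10 and 0.43. In WT cells 4 were negative and 3 were between 0.00 and 0.12. Both interferon comparisons use the same 16-array estimate of the spread. In these bulk samples, fewer cells of a type and less RNA per cell cannot be told apart.

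**Figure D1:**
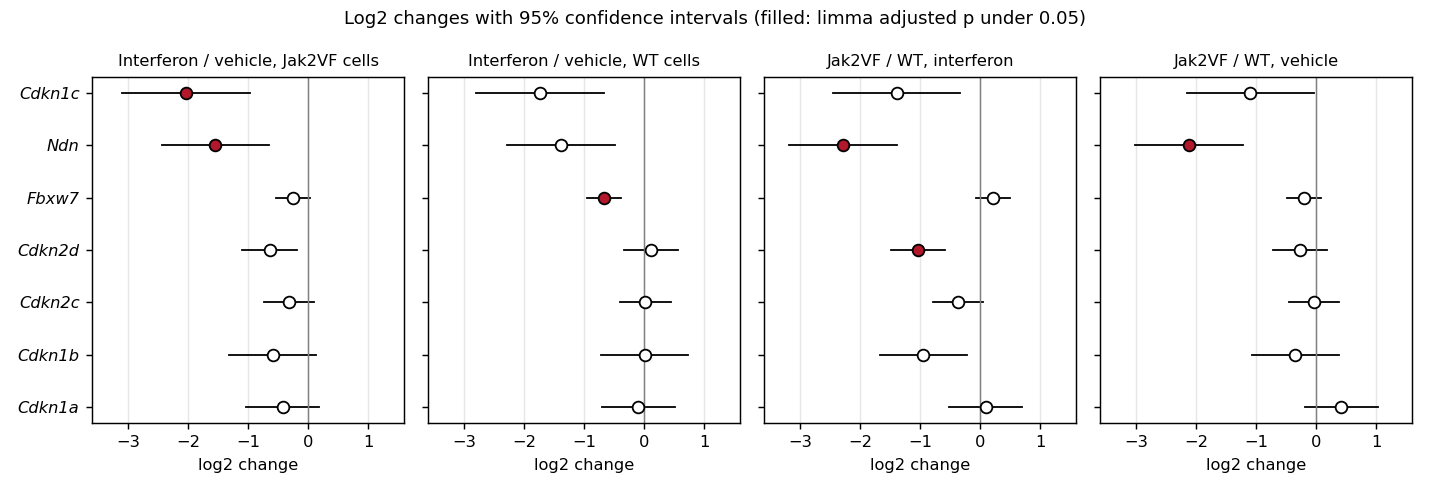
Log2 change of the 7 tested members in the 4 comparisons between groups, the first over the second as in each panel title, as points with 95% confidence intervals from the limma model (4 arrays a group). Filled points are calls at an adjusted p under 0.05: Cdkn1c and Ndn with interferon in Jak2VF cells, Fbxw7 with interferon in WT cells (a direction that turns when arrays are centred on the median of all probes), Ndn and Cdkn2d between genotypes with interferon, and Ndn between genotypes with vehicle.

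Cdkn1c, the inhibitor most closely tied to stem cell rest, had the largest interferon change of the 7 tested members in both genotypes in the 16-array model, an order that in WT cells did not hold with brightness as a term or with the centring on all probes. Its level was 6.94, 6.13, 6.25 and 5.05 on the Jak2VF interferon arrays, against 8.13, 7.58, 9.08 and 7.72 on the Jak2VF vehicle arrays. The groups did not overlap, and the last interferon array was the lowest of all 16 and the only one on which the probe was not detected. The mean was 6.09 ± 0.78 with interferon and 8.13 ± 0.68 with vehicle (SD, n = 4 each). The log2 change was −2.03 (95% interval −3.10 to −0.97, limma adjusted p = 0.0136), which left 0.244 of the vehicle level. Without Jak2VF interferon replicate 4 it was −1.69 and missed the threshold (adjusted p = 0.0574), and without background correction it was −1.15 and passed (0.0205).

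In WT cells Cdkn1c stood at 6.65, 8.68, 7.26 and 7.36 with interferon, against 9.20, 8.71, 10.30 and 8.69 with vehicle. Here too the groups did not overlap, although the highest interferon array and the lowest vehicle array differed by hundredths of a unit. The means were 7.49 ± 0.85 and 9.23 ± 0.76 (SD, n = 4 each). The log2 change of −1.74 (95% interval −2.80 to −0.68) had a limma adjusted p of 0.0632 and was not called. Leaving out 1 array brought it past the threshold in 3 of 16 fits: WT interferon replicate 2 (−2.14, adjusted p = 0.0168), WT vehicle replicate 2 (−1.91, 0.0414) and WT vehicle replicate 4 (−1.92, 0.0354). Over both genotypes the change was −1.89 ± 0.35 (SE, adjusted p = 0.00218), which passed in all 16 fits with 1 array left out but not with brightness as a term (−0.78, 0.166) or within slide 1 (−1.31, 0.233) or slide 2 (−2.47, 0.0519) alone. The difference between the genotypes in this change was −0.29 (95% interval −1.79 to 1.21, adjusted p = 0.870), an interval wide enough to hold no difference or a more than 2-fold one.

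Ndn, the growth suppressor necdin, was the other member that fell with interferon in Jak2VF cells. It measured 5.60, 5.31, 5.43 and 5.02 with interferon, against 6.44, 6.68, 8.17 and 6.25 with vehicle. The groups did not overlap, and the interferon arrays lay within 0.6 of each other near the floor of the scale, with the probe detected on 3 of 4, while Jak2VF vehicle replicate 3 stood well above its group. The means were 5.34 ± 0.24 and 6.89 ± 0.87 (SD, n = 4 each). The log2 change was −1.55 (95% interval −2.44 to −0.65, limma adjusted p = 0.0223), or 0.342 of the vehicle level. It missed the threshold without Jak2VF vehicle replicate 3 (−1.12, adjusted p = 0.065) and without Jak2VF interferon replicate 4 (−1.44, adjusted p = 0.0766), and also without background correction (−0.68, 0.0893).

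In WT cells the levels of Ndn were 7.05, 8.28, 7.15 and 8.04 with interferon, against 9.28, 8.06, 9.63 and 9.07 with vehicle. The groups overlapped by 1 array, interferon replicate 2. The mean was 7.63 ± 0.62 with interferon and 9.01 ± 0.68 with vehicle (SD, n = 4 each), a log2 change of −1.38 (95% interval −2.28 to −0.49) with a limma adjusted p of 0.0679, and its sign turned (0.10) when arrays were centred on all probes. It passed the threshold without WT vehicle replicate 2 (−1.70, adjusted p = 0.0286), without WT interferon replicate 2 (−1.60, 0.0271) or without Jak2VF vehicle replicate 3 (−1.38, 0.0448). Averaged over the genotypes Ndn changed by −1.47 ± 0.30 (SE, adjusted p = 0.00348), which missed the threshold with brightness as a term (−0.79, 0.242) and when centred on all probes (−0.56, 0.0842). The difference between the genotypes was −0.16 (95% interval −1.43 to 1.10).

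**Figure D2:**
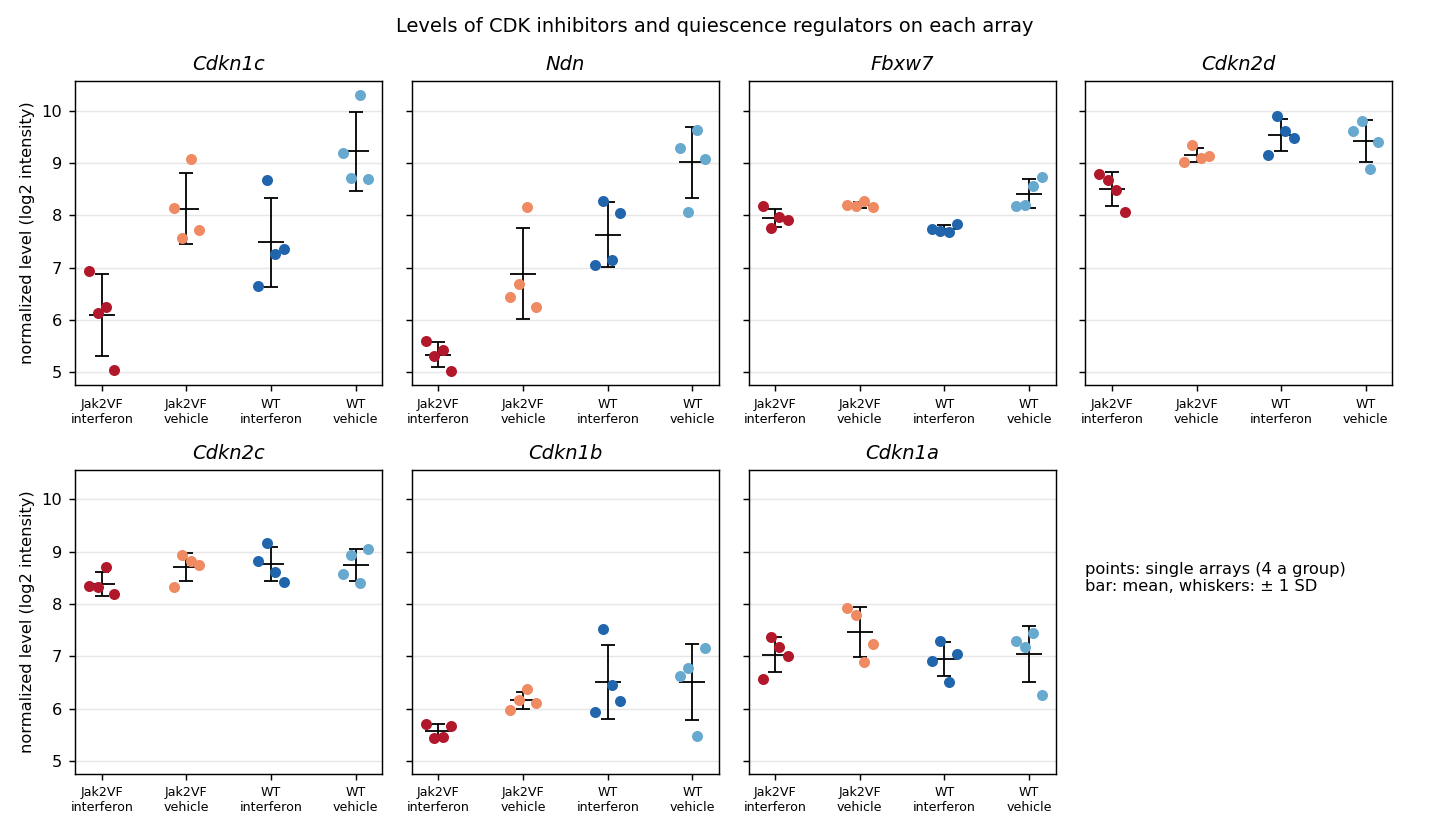
Normalized level (log2 intensity) of the 7 tested members on each of the 16 arrays, with the mean and 1 SD of each group of 4. The group means of Cdkn1c and Ndn were lowest for the Jak2VF interferon arrays (levels of 5.05 to 6.94 and 5.02 to 5.60) and highest for the WT vehicle arrays (8.69 to 10.30 and 8.06 to 9.63). Single arrays of other groups reached into some of these ranges. Cdkn2c and Cdkn1a overlapped between all pairs of groups.

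The level of Cdkn1c moved with the brightness of the array, and for Ndn such a relation did not pass after adjustment. Within groups, the deviation of Cdkn1c from its group mean had a Pearson r of −0.825 with that of log2 array brightness over 16 arrays (permutation within groups, p = 0.00059, 0.00413 adjusted over the 7 members) and a Spearman rho of −0.706 (p = 0.00803, 0.0562 adjusted), and r was −0.679 without the 2 arrays farthest from the median. For Ndn r was −0.600 (p = 0.0206, 0.0722 adjusted), rho −0.576 (p = 0.0497, 0.174 adjusted) and r without those arrays −0.467. The other 5 members had r between −0.162 and 0.077, with unadjusted permutation p of 0.644 or above. Dimmer arrays thus carried higher normalized Cdkn1c, and in both genotypes the vehicle arrays were on average the dimmer ones.

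The scanner intensities before any scaling show the same probes from the other side. Unscaled Cdkn1c intensity was 186, 198, 251 and 133 on the Jak2VF interferon arrays, against 318, 282, 338 and 220 on the Jak2VF vehicle arrays, lower apart from 1 overlapping array. Mean intensity of the arrays was 602 to 1130 with interferon and 391 to 616 with vehicle there. In WT cells it was 303, 214, 271 and 353 with interferon, against 204, 306, 187 and 310 with vehicle, so that the groups overlapped and the interferon mean was the higher one. Ndn intensity was 127, 149, 172 and 131 with interferon, against 161, 191, 222 and 134 with vehicle in Jak2VF cells. In WT cells Ndn intensity spanned 186 to 507 with interferon and 149 to 374 with vehicle. In WT cells, then, neither probe was dimmer on average with interferon before scaling, on arrays that were brighter on average.

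With log2 brightness as a term in the model, the change of Cdkn1c was −1.11 in Jak2VF cells (limma adjusted p = 0.0525) and −0.46 in WT cells (0.948). That of Ndn was −0.98 in Jak2VF cells (adjusted p = 0.135) and −0.60 in WT cells (0.929). Without the 3 dimmest arrays, which were WT vehicle replicates 1 and 3 and WT interferon replicate 2, Cdkn1c changed by −1.61 in WT cells (adjusted p = 0.0862). In Jak2VF cells, which lost no array, the change stayed at −2.03 (0.00158). There this setting could move only the p-value, as the estimate of the spread is shared. Within slide 1 and slide 2, each with 2 arrays of every group, the change of Cdkn1c was −1.32 and −2.75 in Jak2VF cells and −1.29 and −2.19 in WT cells, and that of Ndn −1.11 and −1.99 in Jak2VF cells and −1.01 and −1.76 in WT cells.

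**Figure D3:**
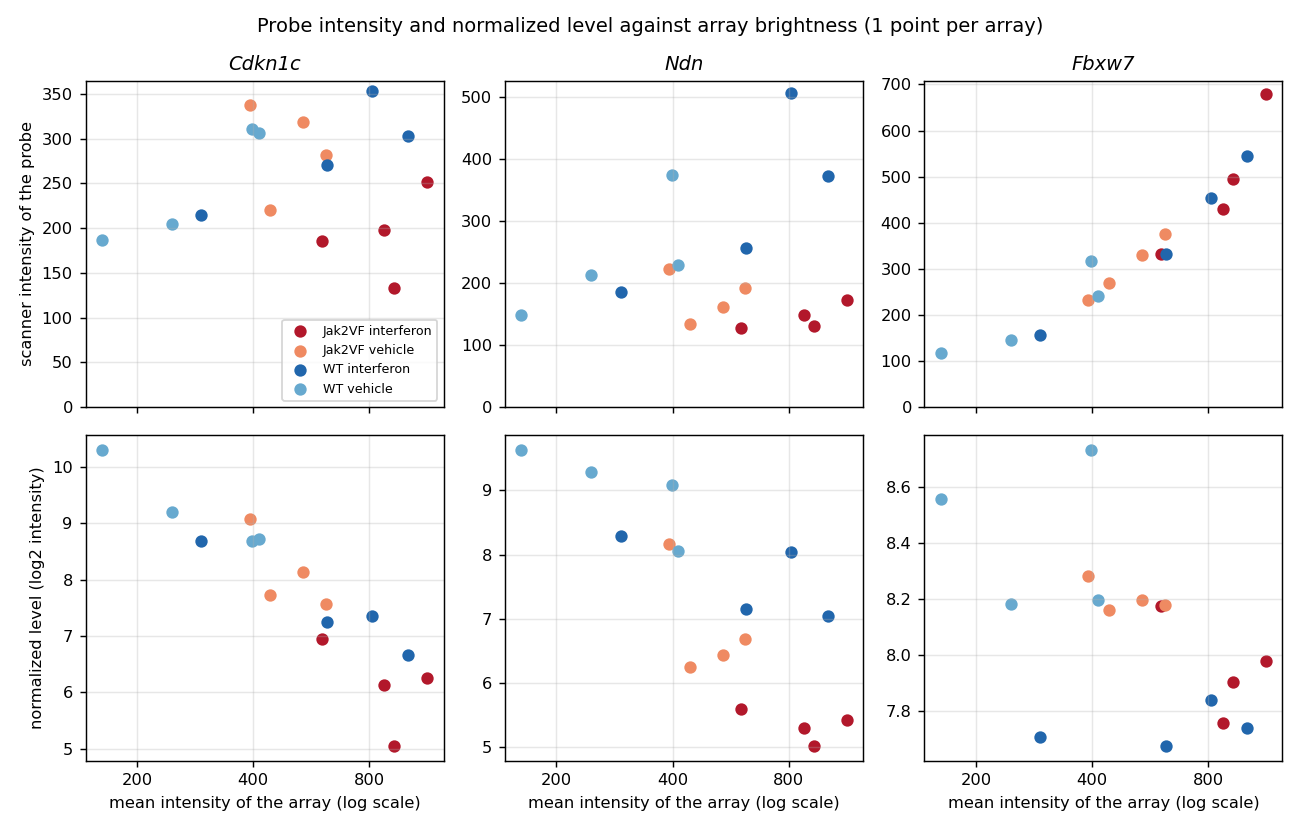
Scanner intensity (upper row) and normalized level (lower row, log2 intensity) of Cdkn1c, Ndn and Fbxw7 against the mean intensity of each of the 16 arrays (log axis), coloured by group. Normalized Cdkn1c declined towards brighter arrays within groups (r −0.825), while r was −0.600 for Ndn, which did not pass after adjustment, and −0.0883 for Fbxw7.

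Fbxw7, which targets cell cycle drivers for destruction, was the member called with interferon in WT cells. Its level was 7.74, 7.71, 7.67 and 7.84 with interferon, against 8.18, 8.20, 8.56 and 8.73 with vehicle. The groups did not overlap and the interferon arrays lay within 0.2 of each other. The mean was 7.74 ± 0.07 with interferon and 8.42 ± 0.27 with vehicle (SD, n = 4 each), a log2 change of −0.68 (95% interval −0.96 to −0.39, limma adjusted p = 0.0229), or 0.625 of the vehicle level. The call was lost without WT interferon replicate 1 (−0.68, adjusted p = 0.0681), 3 (−0.66, 0.077) or 4 (−0.71, 0.0605), in a fit of the WT arrays alone (0.172) and with log2 brightness as a term (−0.65, 0.278). Centring arrays on the median of all probes turned the sign (0.73), but there the median of all genes was 1.12, so that Fbxw7 stayed 0.39 below it. Before scaling, mean Fbxw7 intensity in WT cells was 372 with interferon and 205 with vehicle, and in Jak2VF cells 484 and 301. The probe was thus brighter with interferon, on arrays that were brighter on average, and its fall is relative to the other probes.

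In Jak2VF cells Fbxw7 was 8.17, 7.76, 7.98 and 7.90 with interferon, against 8.20, 8.18, 8.28 and 8.16 with vehicle. The groups overlapped by the highest interferon array, and the log2 change was −0.25 (95% interval −0.54 to 0.03, adjusted p = 0.227). The average over the genotypes was −0.46 ± 0.09 (SE, adjusted p = 0.00356, 0.0856 with brightness as a term, and a change of 0.58 when centred on all probes), and the difference between them 0.43 (95% interval 0.02 to 0.83, unadjusted p = 0.0395, adjusted 0.324). A larger change in WT cells was thus not established. Fbxw7 has 2 further probes, detected on at most 3 of 16 arrays, which were not tested, so the result rests on 1 probe.

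Among the INK4 inhibitors, which block Cdk4 and Cdk6, Cdkn2d was lower with interferon in Jak2VF cells by a margin just short of a call. It measured 8.80, 8.68, 8.48 and 8.06 with interferon, against 9.03, 9.34, 9.09 and 9.14 with vehicle. All interferon arrays lay below all vehicle arrays. The log2 change was −0.64 (95% interval −1.10 to −0.19, limma adjusted p = 0.0517), or 0.10 when centred on all probes. It passed under 6 of 12 other processing settings, among them the slide as a block (adjusted p = 0.0374) and no background correction (0.041), with the smallest adjusted p without the 3 dimmest arrays (0.0107). It also passed when 1 of 5 arrays was left out, namely WT interferon replicate 1 (adjusted p = 0.0456) or 2 (0.0414), WT vehicle replicate 2 (0.0459) or 3 (0.0191), or Jak2VF interferon replicate 1 (0.0424). Where only WT arrays were left out, the change itself stayed at −0.64 and the p-value moved through the shared estimate of the spread. In WT cells Cdkn2d was 9.16, 9.91, 9.62 and 9.47 with interferon, against 9.62, 9.80, 8.88 and 9.40 with vehicle, overlapping groups with a change of 0.12 (95% interval −0.34 to 0.57). The difference between the genotypes was −0.76 (95% interval −1.40 to −0.12, unadjusted p = 0.0229, adjusted 0.275) and was not called.

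Cdkn2c, the other INK4 inhibitor measured, ranged over 8.19 to 8.71 with interferon and 8.33 to 8.93 with vehicle in Jak2VF cells, and over 8.41 to 9.18 with interferon and 8.40 to 9.05 with vehicle in WT cells. The log2 changes were −0.32 (95% interval −0.74 to 0.10) and 0.02 (−0.40 to 0.44), so a fall of more than 0.74 in Jak2VF cells or 0.40 in WT cells lay outside the intervals. A dimmer second probe of Cdkn2c gave −0.38 and 0.33 and was not called either.

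The Cip/Kip inhibitors other than Cdkn1c were not called in any comparison. Cdkn1b (p27) was 5.70, 5.43, 5.45 and 5.68 with interferon, against 5.97, 6.17, 6.38 and 6.11 with vehicle in Jak2VF cells. The groups did not overlap, but the change of −0.59 (95% interval −1.32 to 0.13) had a limma adjusted p of 0.268. Under 12 other processing settings the change lay between −1.05 and −0.22 and passed in 3, with a smallest limma adjusted p of 0.00743. Cdkn1b passed in 0 of 16 fits with 1 array left out in Jak2VF cells, and under 2 of 11 other settings in the average. In WT cells it was 5.93, 7.53, 6.45 and 6.15 with interferon, against 6.62, 6.77, 5.48 and 7.16 with vehicle, with a change of 0.00 (95% interval −0.72 to 0.73). The spread in WT cells was wide, and 2 of its extremes fell on the dimmest arrays. Without the 3 dimmest arrays the WT change was −0.79 (adjusted p = 0.0457). Of the 3 Cdkn1b probes only 1 passed the filter.

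Cdkn1a (p21), the classical target of p53, spanned 6.57 to 7.38 with interferon and 6.89 to 7.92 with vehicle in Jak2VF cells. In WT cells it spanned 6.52 to 7.29 with interferon and 6.26 to 7.45 with vehicle. Both pairs of groups overlapped. The log2 changes were −0.43 (95% interval −1.04 to 0.18, adjusted p = 0.350) and −0.10 (−0.71 to 0.51, 0.826). Its 2 other passing probes gave −0.20 and −0.21 in Jak2VF cells and 0.39 and 0.38 in WT cells, the opposite sign to the brightest probe in WT cells, and none was called. Btg2 was detected on 2 of 16 arrays, 1 of Jak2VF vehicle and 1 of WT interferon. Its level was 4.59 to 5.04 with interferon and 4.67 to 5.49 with vehicle in Jak2VF cells, and 4.70 to 5.43 with interferon and 4.67 to 5.45 with vehicle in WT cells. No change was tested for it.

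Of the tested members, 4 of 7 had interferon arrays that all lay below the vehicle arrays in Jak2VF cells (Cdkn1c, Ndn, Cdkn2d and Cdkn1b), where this held for 15.9% of all tested genes, and 2 of 7 in WT cells (Cdkn1c and Fbxw7), where it held for 5.1%. None lay wholly above, where this held for 14% of all tested genes in Jak2VF cells and 5.6% in WT cells.

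The promoters of the called members were read for the letters that interferon-activated factors bind. RefSeq windows of 250 bases before to 50 after each start (GRCm38.p6) matched 7 of the 8 genes by symbol, in 11 windows, with none for Cdkn1c. The windows below belong to the members called in a comparison and to Cdkn1a, each 5′ to 3′ on the strand of the gene, with any match to a searched motif in capitals.
Ndn, chr7:62348027-62348326, plus strand: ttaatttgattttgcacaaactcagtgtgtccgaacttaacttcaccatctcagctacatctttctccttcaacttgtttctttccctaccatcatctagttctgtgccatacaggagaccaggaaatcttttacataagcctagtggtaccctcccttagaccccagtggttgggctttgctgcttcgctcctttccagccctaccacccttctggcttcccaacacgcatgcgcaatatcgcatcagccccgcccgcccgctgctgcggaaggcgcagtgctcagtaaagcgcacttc
Fbxw7, the first of its 3 windows, chr3:84815327-84815626, plus strand: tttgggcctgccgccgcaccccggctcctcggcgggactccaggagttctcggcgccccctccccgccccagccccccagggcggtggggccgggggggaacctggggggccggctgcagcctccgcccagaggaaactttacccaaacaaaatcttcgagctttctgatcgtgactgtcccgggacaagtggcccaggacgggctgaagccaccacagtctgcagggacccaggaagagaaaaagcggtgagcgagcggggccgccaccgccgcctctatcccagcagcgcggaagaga
Cdkn2d, chr9:21291160-21291459, minus strand: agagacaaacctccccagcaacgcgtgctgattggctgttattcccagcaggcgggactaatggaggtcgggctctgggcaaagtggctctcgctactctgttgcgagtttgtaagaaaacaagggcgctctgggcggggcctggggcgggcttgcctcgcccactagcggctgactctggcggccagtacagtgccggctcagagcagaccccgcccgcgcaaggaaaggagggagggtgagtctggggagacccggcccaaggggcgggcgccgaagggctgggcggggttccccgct
Cdkn1a, the first of its 2 windows, chr17:29090729-29091028, plus strand: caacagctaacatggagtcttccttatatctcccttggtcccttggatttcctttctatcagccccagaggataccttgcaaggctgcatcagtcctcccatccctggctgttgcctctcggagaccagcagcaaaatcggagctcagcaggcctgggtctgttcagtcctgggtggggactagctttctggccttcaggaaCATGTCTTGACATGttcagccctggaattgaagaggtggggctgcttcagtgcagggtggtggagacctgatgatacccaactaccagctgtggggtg

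The core of the interferon-stimulated response element, 2 copies of GAAA with 2 bases between them, was in none of the 11 windows and in 3.44% of all 32851 windows, searched on both strands. The core of the gamma-activated site bound by STAT dimers, TTCNNNGAA, was in none of the 11 and in 8.30% of all. A paired p53 core, 2 copies of CATG with 6 bases between them, was in 1 of the 11, the Cdkn1a window shown, and in 0.712% of all windows. It ran from base −48 to −35 relative to the start of that window only. The second Cdkn1a window, chr17:29093519-29093818, belongs to a start further downstream and held no match, so the core lies well upstream of that other start. The GC content of the shown windows was 51.0% for Ndn, 69.0% for Fbxw7, 66.3% for Cdkn2d and 54.7% for Cdkn1a, beside a median of 52.7% over all windows. Absence of these letters from 300 bases says nothing of binding elsewhere.

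Between genotypes, Ndn and Cdkn2d were lower in Jak2VF than in WT cells with interferon, and Ndn was also called lower with vehicle, a call that the slide as a block ended (adjusted p = 0.0527). With vehicle 1 of 7 tested members was called lower, where 0.114% of all genes were, and with interferon 2 of 7, where 10.1% were. Taking the vehicle arrays listed above, Ndn differed by −2.13 (95% interval −3.02 to −1.23, limma adjusted p = 0.0418), although Jak2VF vehicle replicate 3 (8.17) lay above the lowest WT vehicle array (8.06). That call held under 3 of 12 other processing settings and in 4 of 16 fits with 1 array left out, with adjusted p from 0.00529 to 0.141 and changes from −2.55 to −1.92. It was held without Jak2VF vehicle replicate 3, WT vehicle replicate 2 or 4, or WT interferon replicate 2, and lost without any other array.

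With interferon all Jak2VF arrays lay below all WT arrays for Ndn, a log2 change of −2.29 (95% interval −3.19 to −1.39, adjusted p = 0.0019), or 0.205 of the WT level. Cdkn2d likewise did not overlap and differed by −1.03 (95% interval −1.49 to −0.58, adjusted p = 0.00384), or 0.488 of the WT level. Both calls held in all 16 fits with 1 array left out and with brightness as a term (Ndn −1.96, adjusted p = 0.00222, and Cdkn2d with an adjusted p of 0.00631). Centring on all probes ended the call of Cdkn2d (−0.57, adjusted p = 0.574), and neither call held within 1 slide alone. Cdkn1b was lower on every Jak2VF array too, by −0.95 (95% interval −1.67 to −0.22, adjusted p = 0.069), and passed without WT interferon replicate 1 (0.0444) or WT vehicle replicate 3 (0.0172). Thus 3 of 7 members had Jak2VF interferon arrays wholly below the WT interferon arrays, where this held for 14.7% of all genes. Cdkn1c differed by −1.39 with interferon (adjusted p = 0.0676) and −1.10 with vehicle (0.228, and 0.091 when centred on all probes). It passed with interferon without WT interferon replicate 1 (0.0451), Jak2VF interferon replicate 1 (0.0459) or WT vehicle replicate 3 (0.0347). Cdkn1a was the member with the most positive change, 0.41 with vehicle (95% interval −0.20 to 1.02), and was not called.

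No member passed the test of a difference between the genotypes in the interferon change, where 0.093% of all genes did in the higher and 0.0207% in the lower direction. Unadjusted p was under 0.05 for 2 of the 7, Cdkn2d and Fbxw7, with the values given above.

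The members did not all follow 1 pattern over the arrays. Cdkn1c and Ndn had a Pearson r of 0.88 with each other over 16 arrays, Cdkn1b and Cdkn2d one of 0.82, and Cdkn1b and Cdkn2c one of 0.75, while Cdkn1a had r between −0.25 and 0.13 with every other tested member. These arrays share their groups and their brightness, and the correlations are descriptive. Of the 9673 other genes, those with the highest r over the 16 arrays were S100a13 and Arhgap32 for Cdkn1c (both 0.98), Sult1a1 and Hacd4 for Ndn (both 0.97) and Unc119 and Casp4 for Cdkn2d (0.97 and 0.96). They were Cd84 and Rasl11a for Cdkn1b (0.92 and 0.87), Zdhhc21 and Sass6 for Fbxw7 (both 0.86) and Arl6ip1 and Ints6l for Cdkn2c (0.82 and 0.81). For Cdkn1a they were Cfl1 and Olfr1113, with r of 0.72 and 0.71.

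Further genes of the same machinery were taken from lists chosen by function, with earlier results of these data known. Of 9 tested G1 cyclins and kinases, the targets of the inhibitors, 2 were called higher and 1 lower with interferon averaged over the genotypes. Of all tested genes 13.9% were called higher and 14.6% lower there. The median log2 change of the 9 was 0.03 beside 0.02 over all genes. Ccne1 and Ccne2, the cyclins E that drive entry into S phase, changed by 1.19 ± 0.29 (SE, limma adjusted p = 0.0082) and 0.99 ± 0.31 (0.0305), and Ccnd1, cyclin D1, by −0.72 ± 0.15 (0.00344). In Jak2VF cells Ccne1 averaged 7.96 ± 0.35 with interferon and 6.37 ± 0.19 with vehicle (SD, n = 4 each). Ccnd1 averaged 8.56 ± 0.30 with interferon and 9.81 ± 0.20 with vehicle there. In WT cells none of the 9 was called, and Cdk6 had the smallest p (1.01 ± 0.47, adjusted p = 0.151). With brightness as a term, no G1 cyclin or kinase was called higher in the average or in Jak2VF cells, so that both cyclin E calls were lost, and 1 was called lower in the average. Over all genes that term left 225 calls in the average, against 2764 without it, which also applies to each list below.

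Among 11 tested retinoblastoma family and E2F genes, 4 were called higher and 1 lower in the average, where 13.9% of all tested genes were higher and 14.6% lower. They included the E2F partners Tfdp2 (0.83 ± 0.21, adjusted p = 0.0103) and Tfdp1 (0.51 ± 0.15, 0.0212) and E2f4 (0.32 ± 0.09, 0.0219), the higher ones named here, and E2f1, the activating factor that necdin binds (−0.31 ± 0.09, 0.0231). Of 17 tested S phase genes 3 were called higher and 2 lower, with Cdc6, which loads the replication helicase, at 0.68 ± 0.14 (0.00385) among the higher ones. Of 14 tested G2/M genes 3 were called higher and none lower: Top2a (0.79 ± 0.25, adjusted p = 0.031), Cenpa (0.43 ± 0.10, 0.00913) and Ccnb1 (0.42 ± 0.12, 0.0187). With brightness as a term none of the E2F, S phase or G2/M calls in the average was left. Calls over all genes in the average also fell, from 2764 to 225. Without the 3 dimmest arrays 5 S phase genes were called higher and 1 lower, and 5 G2/M genes higher.

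Genes next to Fbxw7 in its pathway moved in both directions. Of 8 tested substrates, 3 were called higher and 3 lower in the average, where 13.9% of all tested genes were higher and 14.6% lower. Myc, the growth-driving factor, changed by 1.29 ± 0.41 (SE, limma adjusted p = 0.0288) and Ccne1 as given above. Klf2, a transcription factor of resting T cells and of endothelium, changed by −1.87 ± 0.33 (0.00175) and Notch1, a receptor, by −1.06 ± 0.20 (0.00237). These are transcript levels, whereas Fbxw7 acts on the proteins. Of 8 tested genes of p27 degradation and the SCF ligase, Cul1, the scaffold of that ligase, was the only one called (0.36 ± 0.09, adjusted p = 0.00927). With brightness as a term, 1 of the substrates was called in the average, in the lower direction. Of the ligase list 0 genes were then called higher and 1 lower in the average, and 1 higher and 1 lower in Jak2VF cells.

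Some relatives of the members and some other genes linked to stem cell rest were called. Of 4 tested BTG and TOB genes, the family of Btg2, Tob2 was called lower in Jak2VF cells (−0.65 ± 0.20, adjusted p = 0.0366) and in WT cells (−0.83 ± 0.20, 0.0435). Of all tested genes 9.46% and 1.01% were called lower in these comparisons. No BTG or TOB gene was called in either genotype with brightness as a term, and without the 3 dimmest arrays none was in WT cells. Of 20 tested genes linked to quiescence, 3 were called lower in Jak2VF cells, where 9.46% of all tested genes were, and 0 of 20 in WT cells. In the average 4 were called lower and 1 higher, where 14.6% and 13.9% of all tested genes were. Their median log2 change was −0.43 in Jak2VF cells, with 15 negative and 5 positive, and 0.02 in WT cells. In Jak2VF cells Maged1, which encodes another member of the necdin protein family, averaged 6.61 ± 0.74 with interferon and 8.40 ± 0.65 with vehicle (SD, n = 4 each), a change of −1.79 ± 0.34 (SE, 0.00308). Meis1, a stem cell homeobox factor, changed by −0.97 ± 0.18 in Jak2VF cells (0.0025). Hlf had the smallest p in WT cells (−0.56 ± 0.20, 0.0904). Of the 20, 1 was called in the average with brightness as a term, in the lower direction. In Jak2VF cells 5 of the 20 were called lower with that term and 0 higher. Without the 3 dimmest arrays 8 were called lower in Jak2VF cells, where calls over all genes also rose. Of 16 tested p53 targets, relevant to Cdkn1a, 3 were called higher and 3 lower in the average, shares near the 13.9% and 14.6% of all genes. Gadd45a (0.71 ± 0.15, adjusted p = 0.00426) and Zmat3 (0.80 ± 0.21, 0.0142) were among the higher, and the death receptor Tnfrsf10b (−0.98 ± 0.35, 0.046) and the kinase Plk3 (−0.46 ± 0.16, 0.0462) among the lower. None of the 16 was called with brightness as a term. Cdkn2a, the only other CDK inhibitor gene that passed the filter, was detected on 5 of 16 arrays and changed by 0.18 ± 0.24 in Jak2VF cells (0.674) and −0.15 ± 0.24 in WT cells (0.67).

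Markers of several cell types differed between interferon and vehicle, although stem cell and megakaryocyte markers overlapped in WT cells, with 0 of 12 and 0 of 9 called there. Of all tested genes 1.26% were called higher and 1.01% lower in WT cells. The summed normalized intensity of the 12 passing stem cell markers was 4278 to 7109 per array with interferon and 10261 to 11870 with vehicle in Jak2VF cells, and 13814 to 15378 with interferon and 12500 to 15630 with vehicle in WT cells. In Jak2VF cells 5 of the 12 were called lower with interferon, where 9.46% of all tested genes were, and 4 of the 12 with brightness as a term. The sum of 10 erythroid markers was 17236 to 20533 with interferon and 6011 to 9675 with vehicle in Jak2VF cells, and 8363 to 13230 with interferon and 4693 to 6118 with vehicle in WT cells. That of 9 megakaryocyte markers was 9585 to 22054 with interferon and 24153 to 30777 with vehicle in Jak2VF cells, and 37931 to 51154 with interferon and 33847 to 47643 with vehicle in WT cells. The 8 passing eosinophil, mast cell and basophil markers summed to 1077 to 2732 with interferon and 8622 to 20546 with vehicle in Jak2VF cells, and 2377 to 3904 with interferon and 9849 to 34203 with vehicle in WT cells. In Jak2VF cells 7 of the 10 erythroid markers were called higher, where 6.51% of all tested genes were, and 7 of the 9 megakaryocyte markers lower. With brightness as a term these counts were 6 and 6. In WT cells 4 of the 10 erythroid markers were called higher, and 0 with that term. The part of these markers in the changes of Cdkn1c, Ndn, Fbxw7 and Cdkn2d was not tested.

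**Figure D4:**
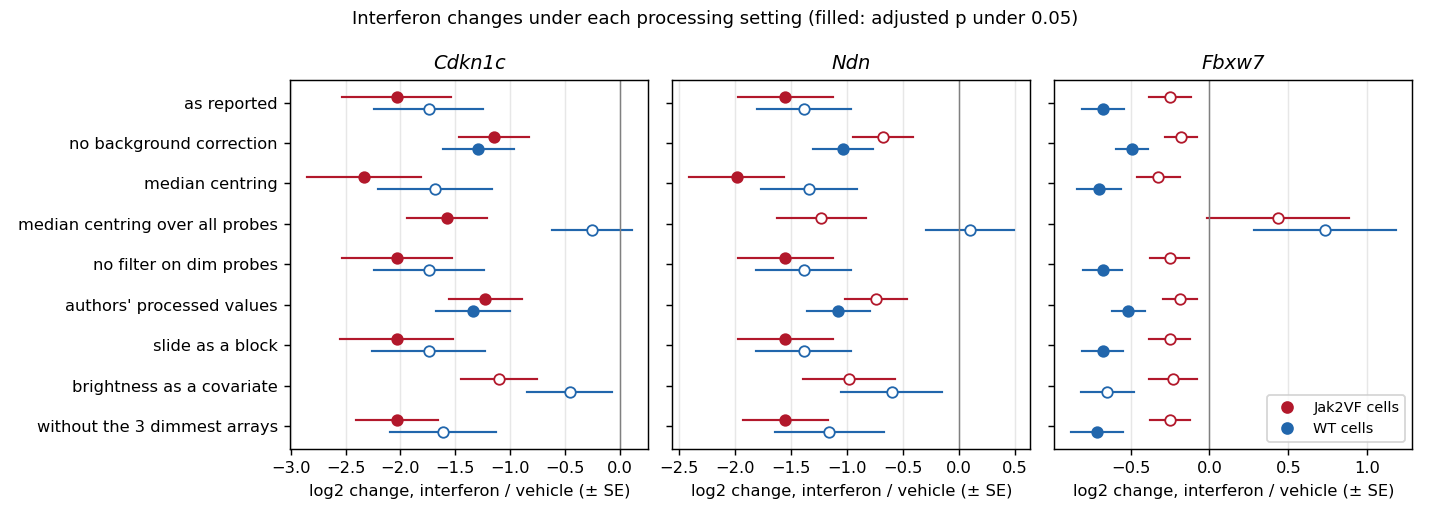
Log2 change with interferon over vehicle (± SE) of Cdkn1c, Ndn and Fbxw7 in Jak2VF cells (red) and WT cells (blue) under 9 processing settings, filled where the adjusted p was under 0.05. Cdkn1c lay below 0 in each setting shown (−2.33 to −1.11 in Jak2VF cells and −1.74 to −0.25 in WT cells), whereas centring on all probes put Fbxw7 above 0 in both genotypes (0.43 and 0.73) and Ndn above 0 in WT cells (0.10).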

How the data were processed

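The arrays held amplified, biotin-labelled RNA extracted with the PicoPure kit, per the labels' protocols. The main table gives per probe and array, per the file headers, the averaged signal of its beads, an intensity on a linear scale whose values show no scaling between arrays, with a detection p-value for each, also deposited. A second deposited table holds intensity values scaled by the authors, used as an alternative. The scanner software is not given in the sources used here. Groups follow the labels; replicate numbers only name arrays. The arrays lay on 2 slides with 2 arrays of each group on each.

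Intensities were processed with neqc in limma 3.58.1 (R 4.3.3; normexp background from the detection p-values, offset 16, quantile normalization, log2). Probes detected (p under 0.05) on at least 4 arrays were kept, and the brightest passing probe stood for a gene. One model with 4 group means (lmFit, eBayes; 12 residual degrees of freedom) gave all 6 comparisons, with Benjamini-Hochberg adjustment over 9680 genes, and was checked on simulated data. Symbols were updated against a gene table of assembly GRCm38.p6: 17548 probes had a current symbol, 7082 were updated and 1046 were not found, and 21 with a date as symbol were left out. The number of arrays limits the precision.

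The members, gene lists and markers were chosen with earlier results of these data known. Members were always named. From each list, up to 4 called genes with the largest change were named, or, without a call, the gene of smallest p, and for each member the 2 genes with the highest r. A few genes picked this way are not reported here, though they stay in the counts. Permutations of brightness within groups numbered 100000, two-sided. Alternatives were no background correction, median centring, no filter, the authors' values, slide as a block or singly, only the groups compared, each probe singly, brightness as a term, and leaving out the 3 dimmest arrays or each array in turn.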

Additional observations from a re-analysis of the deposited data

How the results depend on the processing

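Uneven array brightness, 4 arrays a group and probes near background limit these results. No paired analysis was possible because the labels give no replicate numbers; the 2 slides served as a block. Members called lower numbered 2 with interferon in Jak2VF cells, 1 in WT cells, 3 in the average, and 2 with interferon and 1 with vehicle between genotypes, and calls over all genes 1546, 220, 2764, 1717 and 41, with 11 for the difference.

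With 1 array left out, members called lower ranged from 0 to 3 with interferon in Jak2VF cells and in WT cells, were 3 in every fit of the average, and ranged from 2 to 4 with interferon and 0 to 1 with vehicle between genotypes, with 0 higher in each fit. Calls over all genes ranged from 712 to 2217, 42 to 1999 and 1919 to 3468, and from 1044 to 2301 and 16 to 404, and for the difference from 2 to 25. Signs turned with 1 array left out for interferon in WT cells in Cdkn1a (range −0.36 to 0.042), Cdkn1b (−0.34 to 0.22), Cdkn2c (−0.12 to 0.13) and Cdkn2d (−0.066 to 0.24), between genotypes in Cdkn1a with interferon (−0.055 to 0.24) and Cdkn2c with vehicle (−0.15 to 0.087), and for the difference in Cdkn1c (−0.65 to 0.10) and Ndn (−0.37 to 0.26). None of these was called with all 16 arrays.

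Slide as a block left 0 members called between genotypes with vehicle (Ndn adjusted p = 0.0527), added Cdkn2d in Jak2VF cells, and changed no other count by over 1.5 times. Within slide 1 and slide 2 alone, with 2 arrays a group, 0 members were called in any comparison, and calls over all genes were 9 and 2 with interferon in Jak2VF cells, 0 and 0 in WT cells, 24 and 391 in the average, 70 and 5 with interferon and 2 and 2 with vehicle between genotypes, and 0 and 0 for the difference. Signs turned within slide 1 for Cdkn2d with interferon in WT cells (−0.17) and Cdkn1a between genotypes with interferon (−0.13), and within slide 2 for Cdkn1b (−0.021) and Cdkn2c (−0.21) in WT cells, Cdkn1a in Jak2VF cells (0.024) and in the difference (0.094), and Cdkn2c between genotypes with vehicle (0.051).

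With brightness as a term, 0 members were called with interferon in either genotype, in the average or between genotypes with vehicle, and calls over all genes were 3 in WT cells, 225 in the average, 18 between genotypes with vehicle and 22 for the difference. Cdkn1a (0.0080) and Cdkn2c (−0.028) turned sign in WT cells. Without the 3 dimmest arrays, members called lower were 4 with interferon in Jak2VF cells, 2 in WT cells, 6 in the average and 0 between genotypes with vehicle. Calls over all genes were 3105 in Jak2VF cells, 180 in WT cells (84 of them lower) and 2 for the difference. For the average that count is not given here, so the 6 members have no share of all genes beside them. In WT cells Cdkn1a (0.11), Cdkn1b (−0.79), Cdkn2c (−0.38) and Cdkn2d (−0.18) then turned sign, as did the differences of Cdkn1b (0.20) and Cdkn2c (0.062).

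Without background correction 3 members were called lower with interferon in WT cells, where 726 genes were called, and 76 genes for the difference. The authors' values likewise gave 3 members, 660 genes and 62 genes. The differences of Cdkn1c and Ndn turned sign without background correction (0.14 and 0.36) and with the authors' values (0.11 and 0.34). Without the filter 119 genes were called with interferon in WT cells, 27 between genotypes with vehicle, with 0 members, and 7 for the difference. Testing each probe gave 429 calls in WT cells. Fits of only the groups compared called 4 members and 2617 genes in Jak2VF cells, 0 and 1 in WT cells, 4 members between genotypes with interferon, and 0 and 3 with vehicle.

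Median centring over probes detected on all arrays moved the median of all genes to −0.20 in Jak2VF cells, −0.31 in WT cells and −0.26 in the average. Members called lower were 4 in Jak2VF cells, 4 between genotypes with interferon and 0 with vehicle. Over all genes 36 were called in WT cells, 4610 in the average (982 higher and 3628 lower, against 1348 and 1416), 24 between genotypes with vehicle and 0 for the difference. Signs turned in WT cells for Cdkn1b (−0.84) and Cdkn2c (−0.061) and between genotypes with interferon for Cdkn1a (−0.12).

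Centring over all probes, most of them not detected on every array, was added after the data were seen. It moved the median of all genes to 0.56 in Jak2VF cells, 1.12 in WT cells, 0.84 in the average, 0.33 between genotypes with interferon, 0.89 with vehicle and −0.50 for the difference. Members called lower were 1 in Jak2VF cells, 0 in WT cells, 1 in the average, and 1 with interferon and 0 with vehicle between genotypes, and members called higher were 3 in WT cells and 1 in the average. Over all genes 152 were called in Jak2VF cells, 6129 in WT cells (6078 of them higher), 6186 in the average, 94 and 1 between genotypes with interferon and with vehicle, and 6 for the difference. Signs turned in Jak2VF cells for Cdkn1a (0.16), Cdkn2c (0.41), Cdkn2d (0.10) and Fbxw7 (0.43), in WT cells for Cdkn1a (1.01), Ndn (0.10) and Fbxw7 (0.73), in the average for Cdkn1a (0.59), Cdkn1b (0.15), Cdkn2c (0.89), Cdkn2d (0.81) and Fbxw7 (0.58), between genotypes for Cdkn2c with interferon (0.071) and with vehicle (1.03), Cdkn1b (0.034), Cdkn1c (0.091), Cdkn2d (0.86) and Fbxw7 (0.86) with vehicle, and for the difference in Fbxw7 (−0.30). The cause of the other changes between settings was not tested.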

Other observations

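Some markers of other blood cells were lower with interferon. Of 11 tested granulocyte and monocyte markers, 3 were called lower with interferon in Jak2VF cells, 3 in WT cells and 6 in the average, with none higher, where 9.46%, 1.01% and 14.6% of all tested genes were lower. With array brightness as a term 1 was called in Jak2VF cells, 0 in WT cells and 0 in the average, and without the 3 dimmest arrays 0 in WT cells. Their summed normalized intensity was 8169 to 9707 per array with interferon and 12978 to 56975 with vehicle in Jak2VF cells, and 15145 to 23005 with interferon and 22407 to 72768 with vehicle in WT cells. Of 5 tested B and plasma cell markers 2 were called lower in each genotype, and of 4 tested T and NK cell markers 2 in Jak2VF cells and 0 in WT cells, where their median log2 change was −0.05. No level of a tested member of the group of 8 genes stood apart from the other 3 arrays of its group by Dixon's criterion in any of 28 groups of values.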
